A study of Caenorhabditis elegans with 58 samples.

Results

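The hedgehog-related and patched-related genes of *C. elegans* are the 82 genes named *wrt* (warthog), *grd* (groundhog), *grl* (ground-like), *qua* (quahog), *hog*, *ptc* (patched) and *ptr* (patched-related), out of 45410 entries in the gene count tables. The rule for membership is the gene name and uses no measured value, although the set was proposed with earlier results of these data known. The set holds 10 warthog, 14 groundhog, 30 ground-like, 23 patched-related and 3 patched genes, with 1 quahog and 1 hog gene. All 82 symbols were found in the RefSeq gene table for WBcel235, where *ptc-2* is listed as a pseudogene.

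In flies and vertebrates, Hedgehog is a secreted ligand that is cut and lipid-modified by its own C-terminal domain and is received by the membrane protein Patched, which restrains Smoothened. *C. elegans* has no clear Smoothened and no typical Hedgehog ligand, but a large set of secreted relatives. Warthog, groundhog, quahog and hog proteins include many with the self-cleaving Hog domain, while ground-like proteins lack it. Patched and patched-related proteins span the membrane and carry a sterol-sensing domain. Members of these families are known for work in the epidermis and cuticle, in molting, in membrane traffic and in cytokinesis, and the transcripts of many of them are known to rise and fall with each molting cycle.

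RNA was sequenced from whole hermaphrodites at the mid-L4 stage, the last larval stage, in 58 libraries of 15 groups. The parental experiment (36 libraries, 4 for each of 9 groups, 60 to 75 animals a sample) asked how the age, the temperature and the mating of the parents change the progeny, and whether this depends on *set-2*, a gene for an enzyme that methylates lysine 4 of histone H3. The outcross experiment (22 libraries, 25 to 30 animals a sample) followed lines derived from a cross of wild-type males to *set-2* hermaphrodites. Samples came from independent experiments or independent lines, as the methods of the study state.

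Among wild-type self-progeny, WT F1-4DOA had mothers at day 4 of adulthood and WT F1-25C were kept at 25°C for 1 generation. WT F1-back had been moved back from 25°C to 20°C for 1 generation. The figure text of the study gives 2 generations at 25°C before this return, and its results text points to a longer stay. By either source WT F1-back differed from WT F1-25C in the length of exposure as well as in the return. WT F1-1DOA, from mothers at day 1 of adulthood, were the reference, and all animals grew at 20°C unless stated. The groups set-2 F1-4DOA, set-2 F1-25C and set-2 F1-1DOA carried *set-2(zr1208)*, a single edited allele with a point mutation in the catalytic domain, under the same 3 conditions. The cross-progeny 1DOA x 4DOA and 1DOA x 1DOA were wild type and had young fathers, with mothers at day 4 and at day 1 of adulthood. In the outcross, MUT-des lines were homozygous for *set-2(zr1208)*, WT-des lines were their wild-type relatives from the same cross, and WT-ctrl lines came from a cross without the mutation. Each kind was sampled at generations F3 and F5. The hermaphrodites that founded the outcross lines carried *oyIs14*, a GFP transgene on chromosome V that marks the PVQ neurons. Males with *oyIs14* are named in the methods for crosses to older hermaphrodites, and the cross of young parents is not described there. The sources used here do not say which of the sequenced animals carried it.

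Library totals ran between 1271186 and 31543107 counts with a median of 15300878.5, and the members took between 0.315% and 0.999% of the counts of a library. WT-ctrl F5 replicate 2 was the shallowest library and was left out of the values below, which leaves 21 outcross libraries, and set-2 F1-4DOA replicate 3 held 2819460 counts. Values are counts-per-million (CPM), taken over the library size after TMM scaling, a correction for composition. Markers of epidermis, muscle, intestine, pharynx, neurons, germline, sperm and oocyte or yolk each summed to at least 68.4 CPM in every library, and the 5 male-enriched genes summed to no more than 3.82 CPM in any of these libraries. WT F1-4DOA replicate 4 stood apart, with 849.6 CPM summed over the molting factors against 2732 to 3729.6 in the other libraries of its group. The list of molting factors includes *qua-1*, itself a member. In set-2 F1-4DOA replicate 2 the yolk and oocyte genes summed to 8585 CPM, against 2003 to 3989 in the rest of that group. The symbol of *set-2* itself had almost no counts in any library. A point mutation is not read from the level of a gene, so the mutant labels were not checked.

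Levels of members can be ranked only per kilobase of exon, and they are given so for the WT F1-1DOA libraries (mean ± SD, n = 4). The groundhog gene *grd-5* had 903 ± 137 CPM per kilobase, the ground-like gene *grl-16* 826 ± 281 and *grd-14* 688 ± 138, and these 3 did not differ beyond their spread. The ground-like genes *grl-5* and *grl-7* followed with 337 ± 68.02 and 313 ± 90.3 CPM per kilobase. *wrt-4* had the highest warthog level at 203 ± 49.04 CPM per kilobase, followed by *wrt-6* at 125 ± 21.4. The quahog gene *qua-1*, which is known to be needed for molting, had 95.4 ± 38.2 CPM per kilobase. The receptors had lower means than these ligand-like genes, although *ptc-3* overlapped *qua-1*. *ptc-3*, a patched homologue essential for larval development, had 64.7 ± 11.03 CPM per kilobase, and *ptc-1*, which is known for its part in germline cytokinesis, had 28.3 ± 5.48. The highest patched-related gene, *ptr-18*, had 63.7 ± 13.3 CPM per kilobase and overlapped *ptc-3*. At the low end, *ptr-22* had 0.408 ± 0.183 CPM per kilobase.

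Of the 82 members, 66 had enough counts to be tested, 63 in both experiments and *grd-7*, *grd-9* and *grl-28* only in the outcross. The other 16 members were not tested. Symbols of 4 of these, *hog-1*, *ptr-12*, *ptr-17* and *ptr-24*, had 0 counts in all 58 libraries and *wrt-5* had 3 counts in total. For *hog-1*, *ptr-12*, *ptr-24* and *wrt-5* the reads stood under an entry named by a transcript instead, so a symbol at 0 does not show that the gene is silent. Under that entry *hog-1* had 1.47 to 12.5 CPM over the 57 libraries used, *wrt-5* had 5.97 to 11.7 CPM, *ptr-12* had 2.08 to 20.7 CPM and *ptr-24* had 0 to 0.767 CPM. None of the 3 transcript entries that could be tested (*hog-1*, *wrt-5* and *ptr-12*) was called in any comparison. The remaining 11 untested members (*grd-8*, *wrt-7*, *ptc-2* and 8 ground-like genes) had at most 15 counts in a library.

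A gene was called where the edgeR quasi-likelihood test gave a Benjamini-Hochberg adjusted p under 0.05 over all genes tested and a log2 fold change beyond 1, which is a change by more than a factor of 2. At least 1 of the 21 comparisons called 28 of the 66 tested members: 4 of 8 warthog, 7 of 13 groundhog, 8 of 22 ground-like, 2 of 2 patched and 7 of 20 patched-related genes. Of all 16050 genes tested in either experiment, 22.5% were called at least once by the same rule, and genes that share libraries or comparisons are not independent. *qua-1* was tested and called in none. The heat map of log2 fold changes shows these 28 members across the comparisons between groups. Comparisons that share a group share its libraries and are not independent of each other. Some counts for a library left out or another setting stand without the share of all genes. That share moves between fits too, so such counts show only how far the calls rest on the libraries and settings. Overlap of groups is given for single genes, and the share of all genes without overlap was not computed.

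**Figure D1:**
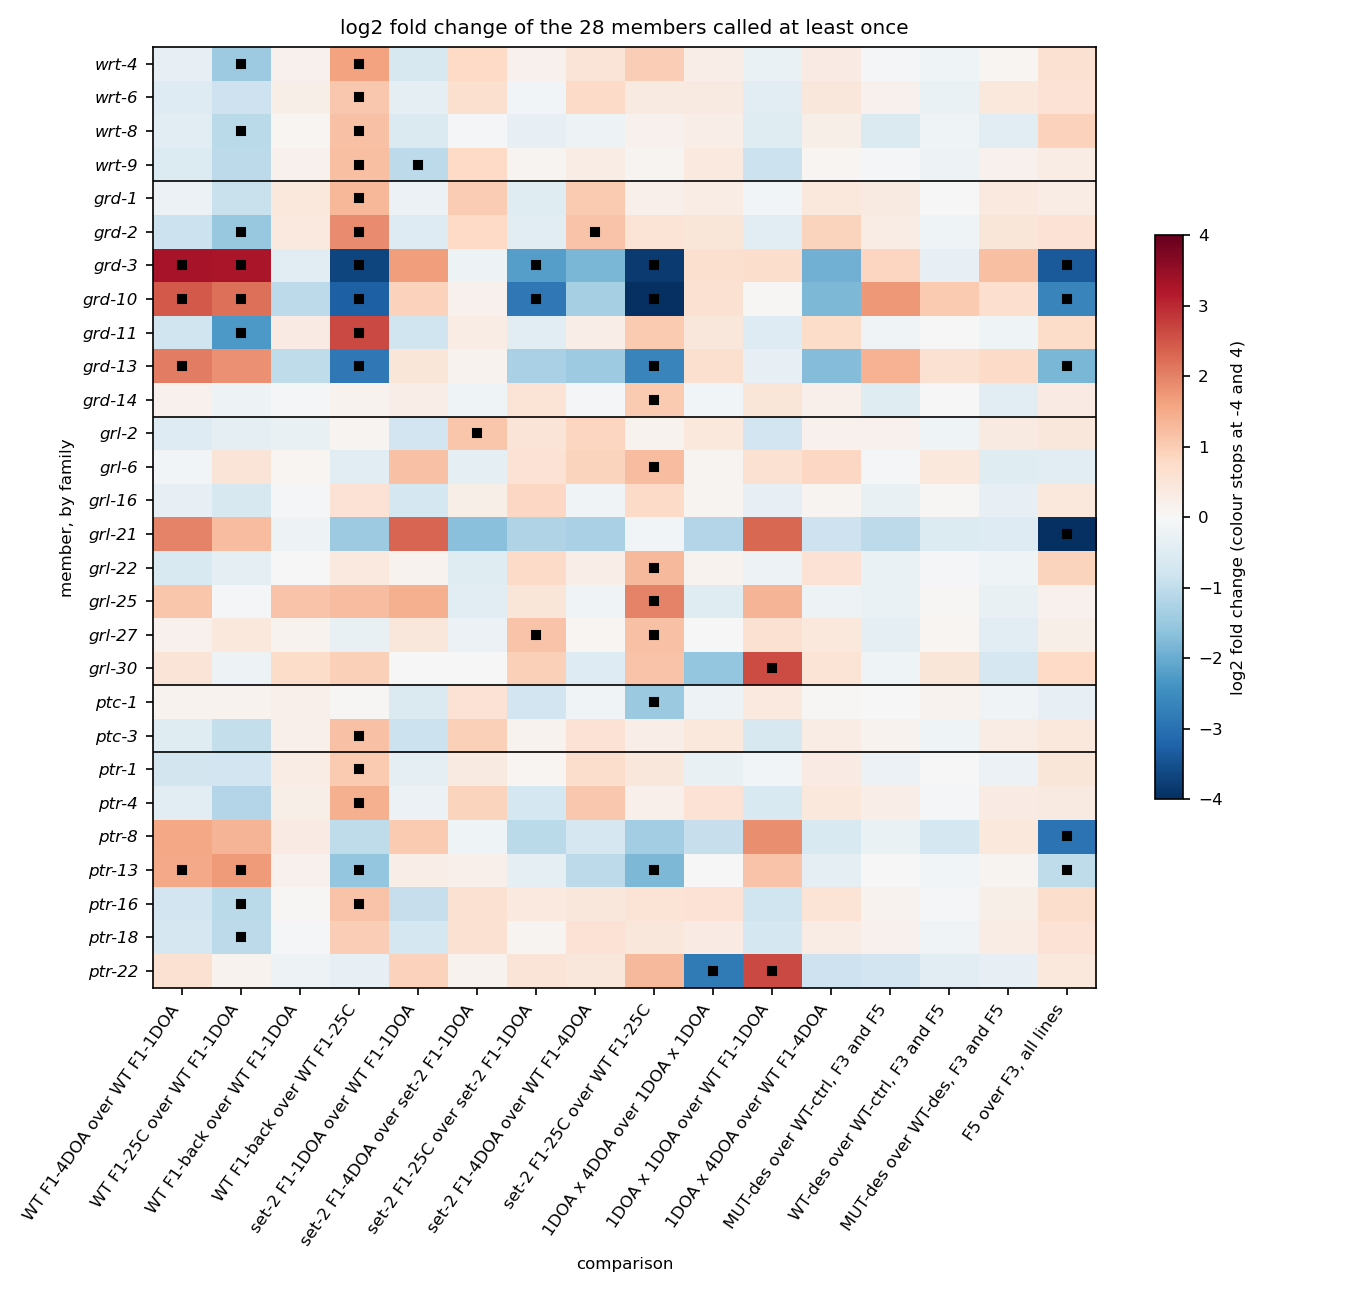
Heat map of log2 fold changes of the 28 members called at least once (rows, ordered as warthog, groundhog, ground-like, patched and patched-related) in 16 comparisons (columns). Red is higher and blue is lower in the group named first, and a black square marks a called gene. *grl-16* has no square because it was called in an interaction, and interactions are not drawn. The groundhog genes *grd-3*, *grd-10* and *grd-13* and the patched-related gene *ptr-13* have the deepest colours in several columns.

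Progeny of older mothers were compared with progeny of young mothers first. In WT F1-4DOA, 4 of 63 tested members were higher than in WT F1-1DOA and 0 were lower, against 2.38% and 0.0653% of all 15306 genes tested. The 4 were the groundhog genes *grd-3*, *grd-10* and *grd-13* and the patched-related gene *ptr-13*. The median log2 fold change of the 63 members was -0.11, and that of all genes was -0.01.

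*grd-3* had 46.3, 45.3, 44.9 and 54.3 CPM in the WT F1-4DOA libraries, against 3.81, 6.500, 5.19 and 4.02 CPM in WT F1-1DOA (log2 fold change 3.30 ± 0.70 SE, adjusted p = 0.00647). All 4 libraries of the older mothers lay above all 4 of the young mothers. *grd-10* had 18.5, 15.3, 17.8 and 19.2 CPM in WT F1-4DOA, against 2.83, 3.43, 4.53 and 2.38 CPM in WT F1-1DOA (2.44 ± 0.61, adjusted p = 0.0184). *grd-13* had 6.37, 5.71, 6.67 and 6.98 CPM in WT F1-4DOA, against 0.391, 1.84, 3.59 and 0.649 CPM in WT F1-1DOA (2.05 ± 0.59, adjusted p = 0.0456). Neither of these genes overlapped between the groups, although *grd-13* came closest, with WT F1-1DOA replicate 3 at the top of its group. *ptr-13* had 13.6, 16.4, 19.7 and 11.8 CPM in WT F1-4DOA, against 4.01, 5.15, 6.99 and 5.32 CPM in WT F1-1DOA (1.52 ± 0.42, adjusted p = 0.0346), again with no overlap. In the RefSeq gene order *grd-13*, *grd-3* and *grd-10* are consecutive protein-coding genes on chromosome IV, with 0 genes between them, and *ptr-13* lies on chromosome II. Whether reads are shared between the 3 groundhog genes was not tested.

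The 4 yolk and oocyte genes moved in the same libraries, with sums of 14831 to 24596 CPM in WT F1-4DOA and 1584 to 6123 CPM in WT F1-1DOA, and the yolk genes *vit-2*, *vit-5* and *vit-6* were called higher. Their part in the change of the 4 members was not tested. Because whole animals were sequenced, fewer cells of a type and less RNA per cell cannot be told apart. The number of members called was 1 without WT F1-1DOA replicate 1 or 2, 0 without WT F1-1DOA replicate 4, and 2 without WT F1-4DOA replicate 2 or 3. The shares of all genes called in these fits are not given, so the counts are not a result about the members. Among the alternatives listed in the closing section, the call of *grd-3* held in 14 of 15, that of *grd-10* in 12 of 15, that of *ptr-13* in 7 of 15 and that of *grd-13* in 4 of 14. The call of *grd-3* was lost without WT F1-1DOA replicate 4, that of *grd-10* without WT F1-1DOA replicates 1, 2 or 4, that of *ptr-13* without WT F1-1DOA replicates 1, 2 or 4 or WT F1-4DOA replicates 2 or 3 and that of *grd-13* without WT F1-1DOA replicates 1, 2 or 4 or WT F1-4DOA replicates 1, 2, 3 or 4. The patched homologues were not called. *ptc-1* had 145, 176, 188 and 126 CPM in WT F1-4DOA, against 141, 115, 182 and 137 CPM in WT F1-1DOA (0.14 ± 0.34, adjusted p = 0.925). *ptc-3* averaged 204 ± 97.7 CPM in WT F1-4DOA and 288 ± 49.1 CPM in WT F1-1DOA (SD, n = 4 each, adjusted p = 0.584).

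**Figure D2:**
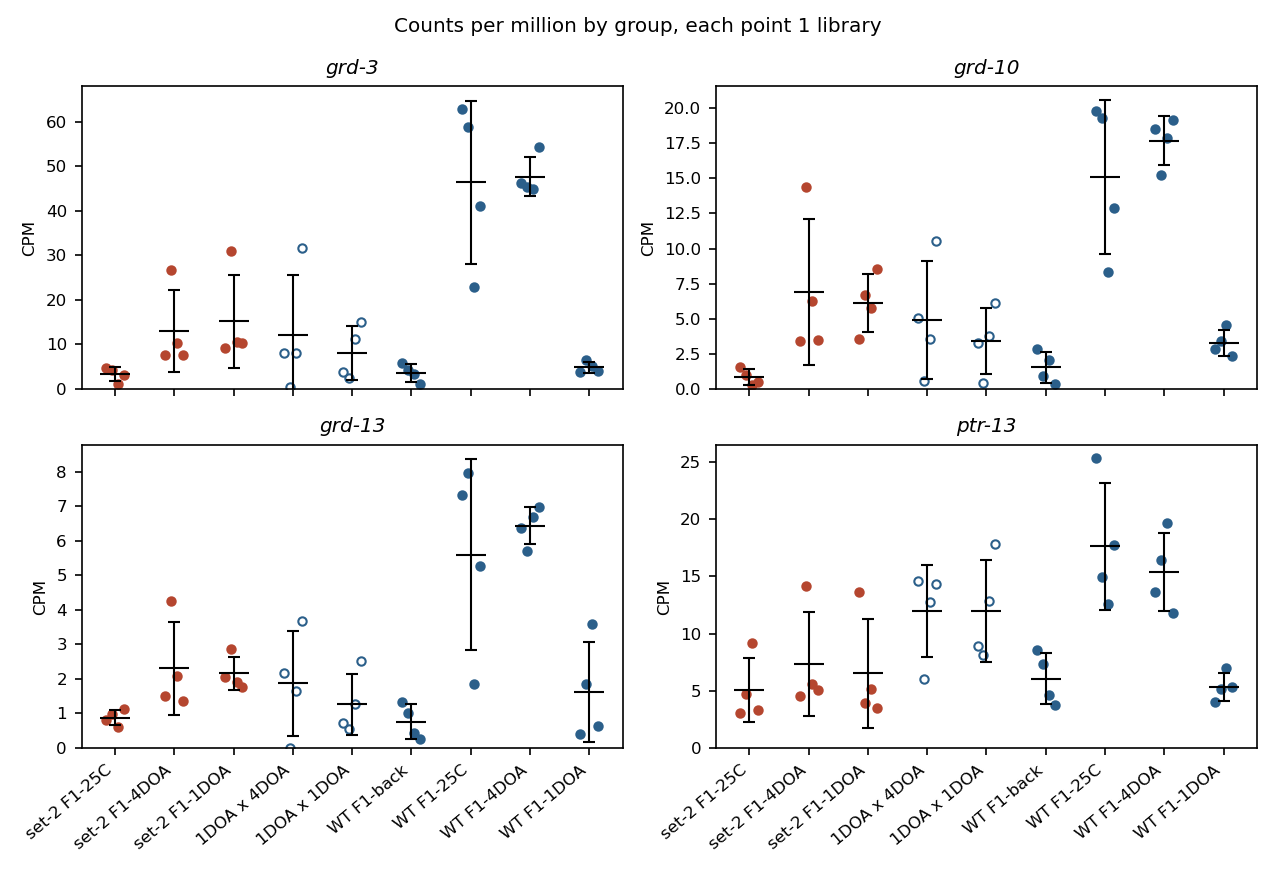
CPM (linear axes) of *grd-3*, *grd-10*, *grd-13* and *ptr-13* in the 9 groups of the parental experiment. Points are libraries (red, *set-2*; blue, wild type; open, cross-progeny), and bars give the mean and SD of 4 libraries, with SD bars stopped at 0. *grd-3* lies at 44.9 to 54.3 CPM in WT F1-4DOA and 22.97 to 62.99 CPM in WT F1-25C, and at 3.81 to 6.500 CPM in WT F1-1DOA.

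Growth at 25°C was accompanied by a higher level of 2 of these groundhog transcripts and of *ptr-13* and by a lower level of 2 warthog, 2 other groundhog and 2 patched-related transcripts. In WT F1-25C, 3 members were higher than in WT F1-1DOA (*grd-3*, *grd-10* and *ptr-13*) and 6 were lower (*wrt-4*, *wrt-8*, *grd-2*, *grd-11*, *ptr-16* and *ptr-18*), against 4.06% and 0.928% of all genes. Without a fold limit, 3 were higher and 9 lower at an adjusted p under 0.05, against 5.83% and 2.42%. Over the members the median log2 fold change was -0.42, and 45 of the 63 were below 0, against -0.004 and 50.6% for all genes.

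Among the ligand-like genes, *wrt-4* had 111, 182, 175 and 95.9 CPM in WT F1-25C, against 398, 499.8, 276 and 364 CPM in WT F1-1DOA (log2 fold change -1.45 ± 0.32 SE, adjusted p = 0.00369). The lowest control library lay above every library kept at 25°C. *wrt-8* had 12.9, 16.6, 41.8 and 22.2 CPM in WT F1-25C, against 52.4, 71.01, 31.2 and 45.4 CPM in WT F1-1DOA (-1.09 ± 0.28, adjusted p = 0.0125). For this gene the groups overlapped in 1 library each, WT F1-25C replicate 3 and WT F1-1DOA replicate 3. *grd-2* had 21.2, 24.9, 21.1 and 14.5 CPM in WT F1-25C, against 73.1, 57.8, 48.1 and 51.8 CPM in WT F1-1DOA (-1.50 ± 0.35, adjusted p = 0.00575). *grd-11* had 1.02, 1.68, 3.03 and 1.04 CPM in WT F1-25C, against 8.503, 11.3, 5.004 and 8.57 CPM in WT F1-1DOA (-2.31 ± 0.43, adjusted p = 6.98e-04). Both groundhog genes separated the groups completely, and *grd-11* had the lowest fold change of the 6.

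In the opposite direction, *grd-3* had 62.99, 58.8, 22.97 and 41.1 CPM in WT F1-25C, against 3.81, 6.500, 5.19 and 4.02 CPM in WT F1-1DOA (3.26 ± 0.70, adjusted p = 0.00321). *grd-10* had 19.8, 19.3, 8.35 and 12.9 CPM in WT F1-25C, against 2.83, 3.43, 4.53 and 2.38 CPM in WT F1-1DOA (2.20 ± 0.61, adjusted p = 0.0207). For both genes WT F1-25C replicate 3 was the lowest of its group and still above every control library. *grd-13* had 7.33, 7.96, 1.85 and 5.26 CPM in WT F1-25C, against 0.391, 1.84, 3.59 and 0.649 CPM in WT F1-1DOA, and was not called (1.83 ± 0.60, adjusted p = 0.0509). Its groups overlapped through replicate 3 on both sides. No ground-like gene was called in either direction, with 14 of 21 below 0 and a median log2 fold change of -0.39.

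Among the patched-related genes, *ptr-13* had 25.3, 14.9, 12.6 and 17.7 CPM in WT F1-25C, against 4.01, 5.15, 6.99 and 5.32 CPM in WT F1-1DOA (1.72 ± 0.42, adjusted p = 0.00817). *ptr-16* had 42.6, 48.6, 48.6 and 29.6 CPM in WT F1-25C, against 104, 104, 68.8 and 81.4 CPM in WT F1-1DOA (-1.08 ± 0.31, adjusted p = 0.0252). *ptr-18*, known for keeping progenitor cells quiescent in starved hatchlings, averaged 93.01 ± 27.7 CPM in WT F1-25C and 190.3 ± 39.8 CPM in WT F1-1DOA (SD, n = 4 each, -1.03 ± 0.32, adjusted p = 0.0379). All 3 separated the groups without overlap. *ptr-1*, *ptr-11* and *ptr-14* also fell at an adjusted p under 0.05 but stayed within the fold limit (log2 fold changes -0.75, -0.93 and -0.76). *ptc-3* averaged 148 ± 40.2 CPM in WT F1-25C and 288 ± 49.1 CPM in WT F1-1DOA and missed the threshold (-0.97 ± 0.35, adjusted p = 0.0822), although the groups did not overlap. *ptc-1* averaged 159 ± 27.3 CPM in WT F1-25C and 144 ± 27.8 CPM in WT F1-1DOA, with overlap (0.14 ± 0.34, adjusted p = 0.892).

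Molting factors and epidermal markers were measured in the same libraries. Because the molting factors include the member *qua-1*, their sums and counts are not separate from the members, here and below. Summed molting factors gave 1205 to 2626 CPM in WT F1-25C and 2120.2 to 4124 CPM in WT F1-1DOA, and epidermal markers gave 1471 to 3322 CPM in WT F1-25C and 2258 to 5189 CPM in WT F1-1DOA. The yolk and oocyte genes summed to 4538 to 12077 CPM in WT F1-25C and 1584 to 6123 CPM in WT F1-1DOA, with 1 of the 4 called higher. The part of these differences in the members' values was not tested. Of 22 molting factors tested, 1 was called lower, *mlt-10* (-1.39 ± 0.41, adjusted p = 0.0332), and 0 higher, and of 18 cuticle collagens 1 was called higher, *dpy-17* (log2 fold change 1.31). The number of members called was 5 without WT F1-1DOA replicate 2 or without WT F1-25C replicate 1, and 14 without WT F1-1DOA replicate 3, where 5.76% of all genes were called. The share is not given for the fits that called 5. In all 15 alternatives *wrt-4*, *grd-2*, *grd-3*, *grd-11* and *ptr-13* kept their calls, and *wrt-8*, *grd-10*, *ptr-16* and *ptr-18* kept theirs in 12 of 15, 9 of 15, 10 of 15 and 9 of 15. Without a filter on low counts the calls of *grd-10*, *ptr-16* and *ptr-18* were lost, with library totals that of *ptr-18* and in a fit of the 2 groups alone that of *wrt-8*. Among single libraries left out, the call of *wrt-8* was lost without WT F1-1DOA replicate 2 or WT F1-25C replicate 1, that of *grd-10* without WT F1-1DOA replicates 1, 2 or 4 or WT F1-25C replicates 1 or 2, that of *ptr-16* without WT F1-1DOA replicates 1 or 2 or WT F1-25C replicates 1 or 4 and that of *ptr-18* without WT F1-1DOA replicates 1 or 2 or WT F1-25C replicates 1 or 4.

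**Figure D3:**
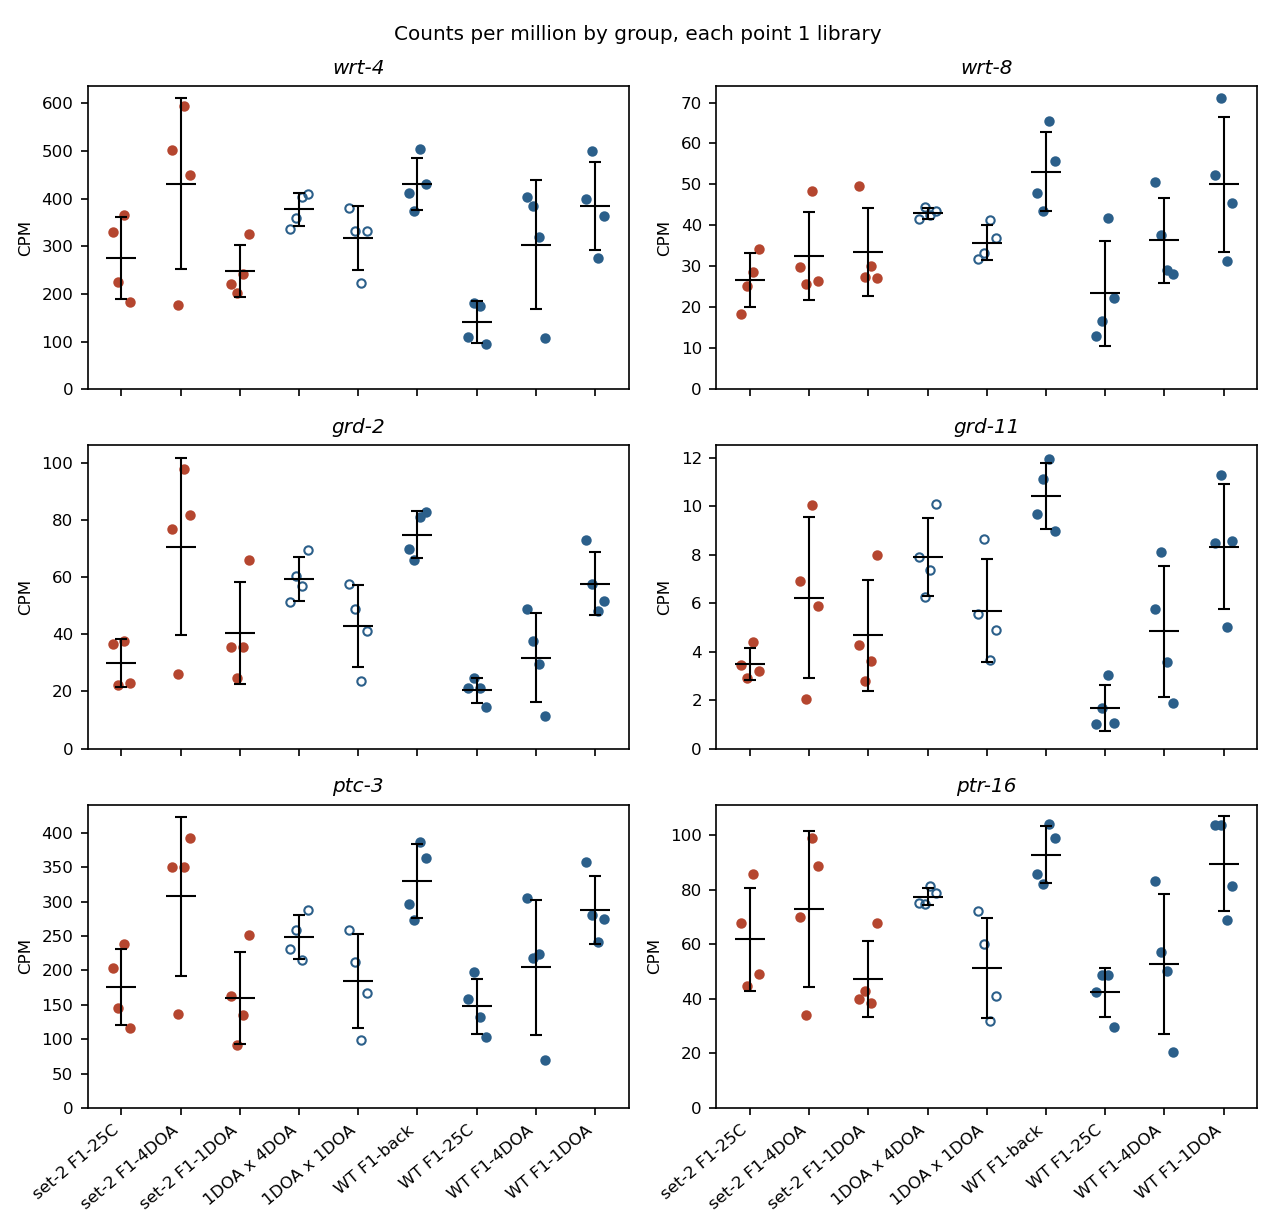
CPM (linear axes) of *wrt-4*, *wrt-8*, *grd-2*, *grd-11*, *ptc-3* and *ptr-16* in the 9 groups of the parental experiment. Points are libraries (red, *set-2*; blue, wild type; open, cross-progeny), and bars give the mean and SD of 4 libraries. *wrt-4* averages 430.2 CPM in WT F1-back, 141 CPM in WT F1-25C and 384 CPM in WT F1-1DOA, and WT F1-4DOA replicate 4 lies far below the rest of its group.

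The question of whether the 25°C levels lasted after a return to 20°C was addressed with WT F1-back. Against WT F1-1DOA no member was called, with 0 higher and 0 lower, against 0.405% and 0.144% of all genes by edgeR. DESeq2 also called 0, and 3 members had an unadjusted p under 0.05, against 11.6% of all genes. Members had a median log2 fold change of 0.05. *wrt-4* had 412, 374, 503 and 431 CPM in WT F1-back, against 398, 499.8, 276 and 364 CPM in WT F1-1DOA. *grd-3* had 5.77, 4.26, 3.26 and 1.09 CPM in WT F1-back, against 3.81, 6.500, 5.19 and 4.02 CPM in WT F1-1DOA. Both sets of values overlapped. A p that misses the threshold does not show equal levels, and for *wrt-4* the estimate was 0.16 ± 0.31 and for *grd-3* -0.42 ± 0.71 on the log2 scale (± SE).

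Against WT F1-25C, 11 members were higher in WT F1-back and 4 were lower, against 2.18% and 6.05% of all genes. This was the largest count of called members among the 21 comparisons, and the count of all genes called was also the largest here. The length of the stay at 25°C also differed between these groups and cannot be told apart from the return. Without the fold limit 16 were higher and 4 lower, against 7.6% and 11.1% of all genes. The median log2 fold change of the 63 members was 0.40, and that of all genes was -0.03. All 15 called members separated the 2 groups without overlap, as did some that were not called. Of the 63 members, 21 lay higher and 5 lower without overlap. The share of all genes without overlap was not computed, so this is not a result about the members. The 11 called higher were 4 of 8 warthog genes (*wrt-4*, *wrt-6*, *wrt-8* and *wrt-9*), 3 of 11 groundhog genes (*grd-1*, *grd-2* and *grd-11*), *ptc-3*, and 3 of 20 patched-related genes (*ptr-1*, *ptr-4* and *ptr-16*). The 4 called lower were *grd-3*, *grd-10*, *grd-13* and *ptr-13*, and 0 of 21 ground-like genes was called.

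*grd-11* had 9.68, 11.1, 11.96 and 8.98 CPM in WT F1-back, against 1.02, 1.68, 3.03 and 1.04 CPM in WT F1-25C (log2 fold change 2.63 ± 0.43 SE, adjusted p = 7.81e-05). *grd-2* had 69.8, 65.97, 81.1 and 82.9 CPM in WT F1-back, against 21.2, 24.9, 21.1 and 14.5 CPM in WT F1-25C (1.88 ± 0.35, adjusted p = 4.56e-04). These 2 groundhog genes stood higher in every library returned to 20°C than in any library kept at 25°C. *wrt-4* gave 1.61 ± 0.32, adjusted p = 7.44e-04 on the log2 scale, and *wrt-8* had 47.9, 43.5, 65.5 and 55.7 CPM in WT F1-back, against 12.9, 16.6, 41.8 and 22.2 CPM in WT F1-25C (1.18 ± 0.28, adjusted p = 0.00369). *wrt-6* averaged 293 ± 49.9 CPM in WT F1-back and 140.1 ± 44.8 CPM in WT F1-25C (1.06 ± 0.35, adjusted p = 0.0339). The other called warthog gene, *wrt-9*, averaged 34.8 ± 3.43 CPM in WT F1-back and 15.4 ± 5.701 CPM in WT F1-25C (1.19 ± 0.35, adjusted p = 0.0177). *grd-1* averaged 106 ± 19.9 CPM in WT F1-back and 42.5 ± 21.1 CPM in WT F1-25C (1.32 ± 0.47, adjusted p = 0.0489).

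Both a patched and several patched-related genes were higher in WT F1-back than in WT F1-25C. *ptc-3* lay at 274 to 387 CPM in WT F1-back, against 102 to 197 CPM in WT F1-25C (1.16 ± 0.35, adjusted p = 0.0187). *ptr-4*, which is known to be needed for molting and for the apical matrix of epithelia, lay at 156 to 238 CPM in WT F1-back, against 52.1 to 114 CPM in WT F1-25C (1.41 ± 0.40, adjusted p = 0.0134). Every WT F1-back library exceeded every WT F1-25C library for both genes. *ptr-16* averaged 92.8 ± 10.4 CPM in WT F1-back and 42.4 ± 8.95 CPM in WT F1-25C (1.13 ± 0.31, adjusted p = 0.0106), and *ptr-1* averaged 136 ± 20.8 CPM in WT F1-back and 66.1 ± 22.5 CPM in WT F1-25C (1.04 ± 0.24, adjusted p = 0.00287). *ptc-1*, in contrast, had 174, 195, 145 and 144 CPM in WT F1-back and 192, 159.6, 125 and 159 CPM in WT F1-25C, with overlap (0.05 ± 0.34, adjusted p = 0.938). *qua-1* averaged 437 ± 111 CPM in WT F1-back and 205 ± 97.5 CPM in WT F1-25C and was not called (1.09 ± 0.51, adjusted p = 0.139).

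Lower in WT F1-back was *grd-3*, with 5.77, 4.26, 3.26 and 1.09 CPM, against 62.99, 58.8, 22.97 and 41.1 CPM in WT F1-25C (-3.69 ± 0.71, adjusted p = 6.74e-04). So was *grd-10*, with 2.84, 0.946, 2.05 and 0.363 CPM in WT F1-back, against 19.8, 19.3, 8.35 and 12.9 CPM in WT F1-25C (-3.26 ± 0.65, adjusted p = 8.19e-04). *grd-13* had 1.33, 1.02, 0.425 and 0.272 CPM in WT F1-back, against 7.33, 7.96, 1.85 and 5.26 CPM in WT F1-25C (-2.85 ± 0.64, adjusted p = 0.00229), and *ptr-13* had 8.53, 7.33, 4.67 and 3.72 CPM in WT F1-back, against 25.3, 14.9, 12.6 and 17.7 CPM in WT F1-25C (-1.54 ± 0.41, adjusted p = 0.00955). These 4 genes separated the groups completely. The yolk and oocyte genes summed to 1612 to 8010.5 CPM in WT F1-back and 4538 to 12077 CPM in WT F1-25C. Summed molting factors gave 2439 to 3674 CPM in WT F1-back and 1205 to 2626 CPM in WT F1-25C, and 2 of 22 were called higher. The yolk and oocyte genes had 1 of 4 called lower and the intestinal markers 1 of 5, *mtl-2* (log2 fold change -1.80), and the part of these lists in the members' values was not tested. Of 14 other hedgehog pathway homologues tested, 0 were called and 4 rose at an adjusted p under 0.05, among them *che-14*, a relative of Dispatched needed in the cuticle-secreting epithelia (0.96 ± 0.32, adjusted p = 0.0333). Of the 15 calls, that of *wrt-6* was lost without WT F1-25C replicates 1, 3 or 4 or WT F1-back replicate 3, that of *grd-1* without WT F1-25C replicates 1, 3 or 4 or WT F1-back replicates 3 or 4 and that of *ptr-1* without WT F1-25C replicate 1 or WT F1-back replicate 3, and the other 12 held with each library left out in turn and in all other alternatives. Over all alternatives *wrt-6*, *grd-1* and *ptr-1* kept their calls in 9 of 15, 7 of 15 and 11 of 15. With library totals all 3 were lost, without a filter on low counts those of *wrt-6* and *grd-1*, and in a fit of the 2 groups alone that of *ptr-1*. With each library left out in turn, between 13 and 22 members were called, with the shares of all genes not given.

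Few members were called between *set-2* and wild-type progeny of young mothers, and a gene that is not called is not shown to be equal. In set-2 F1-1DOA, 0 members were higher and 1 was lower than in WT F1-1DOA, against 1.71% and 1.01% of all genes. That member was *wrt-9*, which lay at 8.61 to 24.2 CPM in set-2 F1-1DOA, against 22.2 to 40.6 CPM in WT F1-1DOA (log2 fold change -1.04 ± 0.35 SE, adjusted p = 0.049). Its groups overlapped through set-2 F1-1DOA replicate 4, and the call was kept in 5 of 15 alternatives. Leaving out a single library gave 0 members called for WT F1-1DOA replicates 1, 2 and 4 and set-2 F1-1DOA replicates 2 and 3. It gave 2 members, neither of them *wrt-9*, without set-2 F1-1DOA replicate 1, 3 without WT F1-1DOA replicate 3 and 5 without set-2 F1-1DOA replicate 4. The shares of all genes called in these fits are not given, so the counts are not a result about the members. *grd-3* had 9.27, 30.9, 10.5 and 10.3 CPM in set-2 F1-1DOA, against 3.81, 6.500, 5.19 and 4.02 CPM in WT F1-1DOA, a difference that missed the threshold (1.66 ± 0.68, adjusted p = 0.0946). *grl-21* lay at 0.640 to 103 CPM in set-2 F1-1DOA, against 0.391 to 24.4 CPM in WT F1-1DOA (2.34 ± 1.16, adjusted p = 0.169), a wide spread within both groups.

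Within *set-2*, older mothers gave 1 member higher and 0 lower than young mothers, against 1.61% and 4.37% of all genes. The median log2 fold change was 0.41 over the members and 0.05 over all genes. The called gene was the ground-like gene *grl-2*, which lay at 3.397 to 10.8 CPM in set-2 F1-4DOA, against 1.99 to 3.31 CPM in set-2 F1-1DOA (log2 fold change 1.10 ± 0.35 SE, adjusted p = 0.023). A narrow gap separated the groups. *grd-3* had 7.65, 26.8, 10.4 and 7.55 CPM in set-2 F1-4DOA, against 9.27, 30.9, 10.5 and 10.3 CPM in set-2 F1-1DOA (-0.19 ± 0.64, adjusted p = 0.855). In set-2 F1-4DOA, replicate 2 had the highest *grd-3*, *grd-10*, *grd-13* and *ptr-13* and the lowest *wrt-4*, *grd-2*, *grd-11* and *ptc-3* of the 4 libraries. The number of members called, *grl-2* included, was 0 without set-2 F1-1DOA replicate 2 or without set-2 F1-4DOA replicate 1, 3 or 4, 2 without set-2 F1-1DOA replicate 1, 6 without set-2 F1-1DOA replicate 4 and 5 without set-2 F1-4DOA replicate 2. Of all genes, 9.79%, 9.05% and 9.37% were called in the last 3 of these fits. In the same libraries, 3 of 4 sperm genes were called lower (*msp-3*, *msp-10* and *msp-142*, log2 fold changes -1.46, -1.50 and -1.34), with sums of 105 to 227 CPM in set-2 F1-4DOA and 271 to 607 CPM in set-2 F1-1DOA. The yolk receptor gene *rme-2* (-1.43) and the intestinal marker *mtl-2* (-1.36) were also called lower. The apical matrix gene *fbn-1* (2.23), 1 of 22 molting factors, and *mab-3* (1.40), the 1 male-enriched gene tested, were called higher. Molting factors summed to 2779 to 5721 CPM in set-2 F1-4DOA and 1300.0 to 3039 CPM in set-2 F1-1DOA. The part of these lists in the members' values was not tested.

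Between set-2 F1-4DOA and WT F1-4DOA, 1 member was higher and 0 were lower in the mutant, against 1.31% and 2.59% of all genes. *grd-2* had 76.7, 26.2, 97.99 and 81.7 CPM in set-2 F1-4DOA, against 48.7, 37.7, 29.6 and 11.5 CPM in WT F1-4DOA (log2 fold change 1.14 ± 0.35 SE, adjusted p = 0.033), with overlap. This count rested on single libraries. It was 10 (6 higher and 4 lower) without set-2 F1-4DOA replicate 2, where 2.33% of all genes were called higher and 4.71% lower. It was 6 without WT F1-4DOA replicate 1, where 5.49% of all genes were called, and it was 0 without any 1 of the other 6 libraries. The 4 lower members without set-2 F1-4DOA replicate 2 were *grd-3*, *grd-10*, *grd-13* and *ptr-13* (log2 fold changes -2.48, -2.09, -2.01 and -1.57). The difference between the effects of maternal age in *set-2* and in wild type, tested as an interaction, called 0 members in each direction, against 0.0915% and 1.13% of all genes. At an unadjusted p under 0.05 there were 25 members, against 20.9% of all genes. DESeq2 called 5, but its share of all genes is not given, so that count is not a result about the members. Without set-2 F1-4DOA replicate 2 that interaction called 18 members, 15 positive and 3 negative, against 2.37% and 5.52% of all genes in that fit. Without set-2 F1-1DOA replicate 4 it called 10 members and 3.95% of all genes, without WT F1-4DOA replicate 1 it called 7 and 2.87%, and without set-2 F1-1DOA replicate 3 it called 1 and 1.69%. The sperm gene *msp-3* (-1.43) and *rme-2* (-1.98) were called negative in the interaction with all libraries. The yolk and oocyte genes, which summed to 2003 to 8585 CPM in set-2 F1-4DOA and 14831 to 24596 CPM in WT F1-4DOA, were all 4 called lower in the mutant. The part of these genes in the members' values was not tested.

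At 25°C the *set-2* progeny had lower, not higher, levels of 2 of the neighbouring groundhog genes. In set-2 F1-25C, 1 member was higher and 2 were lower than in set-2 F1-1DOA, against 1.99% and 0.98% of all genes. *grd-10* had 1.54, 0.994, 0.268 and 0.520 CPM in set-2 F1-25C, against 3.53, 6.700, 5.76 and 8.53 CPM in set-2 F1-1DOA (log2 fold change -2.85 ± 0.68 SE, adjusted p = 0.00999). *grd-3* had 4.63, 4.33, 1.14 and 3.03 CPM in set-2 F1-25C, against 9.27, 30.9, 10.5 and 10.3 CPM in set-2 F1-1DOA (-2.21 ± 0.69, adjusted p = 0.0442). Neither gene overlapped between the groups, and set-2 F1-1DOA replicate 2 was well above the rest of its group for *grd-3*. The ground-like gene *grl-27* lay at 67.96 to 147 CPM in set-2 F1-25C, against 15.1 to 79.8 CPM in set-2 F1-1DOA (1.13 ± 0.33, adjusted p = 0.0295), with overlap. The number called was 6 without set-2 F1-1DOA replicate 2, 5 without set-2 F1-25C replicate 3, and 1 (*grd-10*) without set-2 F1-1DOA replicate 3 or 4 or without set-2 F1-25C replicate 2 or 4. Shares of all genes are not given for these fits, so the counts are not a result about the members. The call of *grd-3* was lost without set-2 F1-1DOA replicates 2, 3 or 4 or set-2 F1-25C replicates 1, 2, 3 or 4, and that of *grl-27* without set-2 F1-1DOA replicates 1, 3 or 4 or set-2 F1-25C replicates 2 or 4. Over all alternatives the call of *grd-10* held in 15 of 15, that of *grd-3* in 5 of 15 and that of *grl-27* in 8 of 15, and those of *grd-3* and *grl-27* were also lost without a filter on low counts and in a fit of the 2 groups alone. In the same comparison the yolk gene *vit-5* was called lower (log2 fold change -2.67) and the collagen gene *dpy-17* higher (1.295). The yolk and oocyte genes summed to 1700.3 to 2786 CPM in set-2 F1-25C and 2236 to 7559 CPM in set-2 F1-1DOA, and their part in the members' values was not tested.

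Compared directly at 25°C, set-2 F1-25C had 5 members higher and 5 lower than WT F1-25C, against 1.79% and 4.7% of all genes. The 5 lower ones were *grd-3*, *grd-10*, *grd-13*, *ptc-1* and *ptr-13*, and the 5 higher ones were *grd-14* and the ground-like genes *grl-6*, *grl-22*, *grl-25* and *grl-27*. Without the fold limit 9 were higher and 6 lower, against 6.3% and 11.9% of all genes, and the median log2 fold change was 0.26 over the members and -0.01 over all genes. *grd-3* had 4.63, 4.33, 1.14 and 3.03 CPM in set-2 F1-25C, against 62.99, 58.8, 22.97 and 41.1 CPM in WT F1-25C (log2 fold change -3.81 ± 0.72 SE, adjusted p = 6.89e-04). *grd-10* had 1.54, 0.994, 0.268 and 0.520 CPM in set-2 F1-25C, against 19.8, 19.3, 8.35 and 12.9 CPM in WT F1-25C (-4.13 ± 0.69, adjusted p = 1.71e-04). Every mutant library lay below every wild-type library for both genes. *grd-13* averaged 0.881 ± 0.229 CPM in set-2 F1-25C and 5.600 ± 2.76 CPM in WT F1-25C (-2.66 ± 0.62, adjusted p = 0.00382), and *ptr-13* averaged 5.07 ± 2.83 CPM in set-2 F1-25C and 17.6 ± 5.54 CPM in WT F1-25C (-1.80 ± 0.42, adjusted p = 0.00371).

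The receptor gene *ptc-1* had 47.5, 54.9, 103 and 19.4 CPM in set-2 F1-25C, against 192, 159.6, 125 and 159 CPM in WT F1-25C (-1.50 ± 0.35, adjusted p = 0.004). No library of the mutant reached the lowest wild-type library, and this was the 1 comparison of the 21 that called *ptc-1*. *ptc-3* averaged 176 ± 55.5 CPM in set-2 F1-25C and 148 ± 40.2 CPM in WT F1-25C and was not called (0.25 ± 0.34, adjusted p = 0.649). Among the ground-like genes *grl-22* had 24.5, 25.6, 25.4 and 41.5 CPM in set-2 F1-25C, against 8.74, 13.97, 16.5 and 8.25 CPM in WT F1-25C (1.31 ± 0.22, adjusted p = 2.07e-04). The groups did not overlap, and set-2 F1-25C replicate 4 was the highest. *grl-27* averaged 105 ± 34.9 CPM in set-2 F1-25C and 46.8 ± 10.7 CPM in WT F1-25C (1.16 ± 0.33, adjusted p = 0.0146), and the groundhog gene *grd-14* averaged 736 ± 315 CPM in set-2 F1-25C and 354 ± 116 CPM in WT F1-25C (1.06 ± 0.26, adjusted p = 0.00499). Levels of the other 2 were low. *grl-25* averaged 1.15 ± 0.302 CPM in set-2 F1-25C and 0.251 ± 0.171 CPM in WT F1-25C (1.99 ± 0.49, adjusted p = 0.00611), and *grl-6* averaged 1.61 ± 0.631 CPM in set-2 F1-25C and 0.713 ± 0.327 CPM in WT F1-25C (1.22 ± 0.40, adjusted p = 0.031). The groups overlapped for *grd-14* and *grl-6*. In these libraries the 4 yolk and oocyte genes were called lower in the mutant (1700.3 to 2786 CPM in set-2 F1-25C and 4538 to 12077 CPM in WT F1-25C), and 4 of 18 cuticle collagens tested were called higher, among them *dpy-5* (1.11 ± 0.27, adjusted p = 0.00477). Their part in the members' values was not tested. The call of *grd-14* was lost without WT F1-25C replicate 2 or set-2 F1-25C replicate 4, that of *grl-27* without set-2 F1-25C replicate 4 and that of *grl-6* without WT F1-25C replicates 3 or 4 or set-2 F1-25C replicates 2 or 4. Over all alternatives *grd-14*, *grl-27* and *grl-6* kept their calls in 11 of 15, 13 of 15 and 7 of 14, and with library totals all 3 were lost. With each library left out in turn, between 8 and 13 members were called, with the shares of all genes not given.

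The dependence of the 25°C effect on *set-2* was tested as an interaction, the log2 fold change of 25°C over 1DOA in *set-2* minus that in wild type. It called 3 positive members, *wrt-4*, *grl-16* and *grl-22*, and 4 negative ones, *grd-3*, *grd-10*, *grd-13* and *ptr-13*, against 0.732% and 1.95% of all genes. The difference was -5.47 ± 0.98 for *grd-3* (SE, adjusted p = 0.00342) and -5.06 ± 0.91 for *grd-10* (adjusted p = 0.00342). For these 2 genes the wild type was higher and the mutant lower at 25°C than their own 1DOA groups. *grd-13* gave -3.13 ± 0.87, adjusted p = 0.0406 and *ptr-13* gave -2.07 ± 0.59, adjusted p = 0.0459. *grl-16*, one of the most abundant members, gave 1.47 ± 0.35, adjusted p = 0.0156. It averaged 1502 ± 141 CPM in set-2 F1-25C, against 852 ± 161 CPM in set-2 F1-1DOA, and 881 ± 125 CPM in WT F1-25C, against 1388 ± 473 CPM in WT F1-1DOA. *wrt-4* had 330.4, 226, 365 and 182 CPM in set-2 F1-25C, against 219.8, 202, 243 and 326 CPM in set-2 F1-1DOA (0.16 ± 0.31, adjusted p = 0.798), beside the lower wild-type levels at 25°C given above, and its interaction was 1.61 ± 0.44, adjusted p = 0.0395. *grl-22* gave 1.17 ± 0.31, adjusted p = 0.0327. The same interaction called 4 of 18 cuticle collagens positive (*bli-6*, *dpy-4*, *dpy-5* and *dpy-13*, differences 1.51, 1.80, 1.59 and 1.68) and 2 of 4 yolk and oocyte genes negative (*rme-2* and *vit-5*, -1.31 and -4.11). Collagens summed to 12629 to 20608 CPM in set-2 F1-25C, against 8826 to 14925 CPM in set-2 F1-1DOA, and to 5993 to 12374 CPM in WT F1-25C, against 8986 to 20002 CPM in WT F1-1DOA. Their part in the members' values was not tested. The calls of *grd-3*, *grd-10* and *grl-16* held in all 23 alternatives, those of *grl-22* in 17 of 23, *wrt-4* in 12 of 23, *ptr-13* in 9 of 23 and *grd-13* in 8 of 22. Among single libraries left out, the call of *grl-22* was lost without WT F1-1DOA replicate 2, WT F1-25C replicates 1 or 4 or set-2 F1-25C replicate 4, that of *wrt-4* without WT F1-1DOA replicates 1 or 2, WT F1-25C replicates 1 or 4, set-2 F1-1DOA replicates 1 or 2 or set-2 F1-25C replicates 1 or 3, that of *ptr-13* without WT F1-1DOA replicates 1, 2 or 4, WT F1-25C replicates 1, 2 or 4, set-2 F1-1DOA replicates 1 or 3 or set-2 F1-25C replicates 1, 2 or 4 and that of *grd-13* without WT F1-1DOA replicates 1, 2 or 4, WT F1-25C replicates 1, 2 or 4, set-2 F1-1DOA replicates 1, 2 or 3 or set-2 F1-25C replicates 1, 2 or 3. The number of members called was 3 without WT F1-1DOA replicate 2 or without WT F1-25C replicate 1 or 4, 4 without WT F1-1DOA replicate 1, set-2 F1-1DOA replicate 1 or set-2 F1-25C replicate 1, and 11 without WT F1-25C replicate 3, where 3.35% of all genes were called.

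Cross-progeny were used to ask whether a young father changes the effect of an older mother. Between 1DOA x 4DOA and 1DOA x 1DOA, 0 members were higher and 1 was lower, against 0% and 0.0653% of all genes. It was *ptr-22*, a patched-related gene, with 1.08, 0.876, 0.963 and 0.889 CPM in 1DOA x 4DOA, against 14.4, 6.47, 3.67 and 2.28 CPM in 1DOA x 1DOA (log2 fold change -2.84 ± 0.59 SE, adjusted p = 0.0487). The 1DOA x 1DOA libraries covered a wide range and none reached down to the 1DOA x 4DOA values. The call was kept in 5 of 14 alternatives. It was lost without 1DOA x 1DOA replicate 1 or 3 and without any 1 of the 1DOA x 4DOA libraries, which left 0 members called, while 2 were called without 1DOA x 1DOA replicate 2. The interaction of maternal age with the cross also called *ptr-22* alone (-3.46 ± 0.85, adjusted p = 0.0488), against 0.0457% positive and 0.536% negative genes. That call held in 5 of 22 alternatives. It was lost without WT F1-1DOA replicates 1, 2, 3 or 4, WT F1-4DOA replicates 2 or 3, 1DOA x 1DOA replicates 1, 3 or 4 or 1DOA x 4DOA replicates 1, 2, 3 or 4, which left 0 members called, or 1 other member without 1DOA x 4DOA replicate 4, and 2 members were called without WT F1-4DOA replicate 1 or 1DOA x 1DOA replicate 2.

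Against self-progeny of young mothers, 1DOA x 1DOA had 2 members higher and 0 lower, against 1.4% and 0.921% of all genes. *ptr-22* had 14.4, 6.47, 3.67 and 2.28 CPM in 1DOA x 1DOA, against 0.684, 1.84, 1.13 and 0.866 CPM in WT F1-1DOA (log2 fold change 2.63 ± 0.57 SE, adjusted p = 0.00812). The ground-like gene *grl-30* lay at 1.58 to 5.54 CPM in 1DOA x 1DOA, against 0.368 to 0.822 CPM in WT F1-1DOA (2.61 ± 0.40, adjusted p = 1.64e-04). Both genes separated the groups without overlap, and both calls held in all 14 alternatives where the gene was tested. Without WT F1-1DOA replicate 3 the count was 4, with the share of all genes not given. In 1DOA x 4DOA, *grl-30* lay at 0.767 to 1.65 CPM. Both *ptr-22* and *grl-30* lie on chromosome V, as do the transgene named above and many members that were not called here. Whether the transgene had a part was not tested. The cross, the father and any transgene he brought cannot be told apart in this comparison. Of the other hedgehog pathway homologues, *hhat-2*, a gene of the family that adds lipid to Hedgehog in other animals, was lower in 1DOA x 1DOA (-1.08 ± 0.25, adjusted p = 0.0109), and so was the intestinal marker *mtl-2* (log2 fold change -1.94). Their part in the members' values was not tested.

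Between 1DOA x 4DOA and WT F1-4DOA, both from older mothers, edgeR called 0 members in each direction, against 1.05% and 1.89% of all genes. An unadjusted p under 0.05 was reached by 9, against 20.8% of all genes. DESeq2 called 2, and 3 were called without 1DOA x 4DOA replicate 4. Shares of all genes are not given for these last 2 counts, which are not a result about the members. *grd-3* had 8.11, 0.548, 8.19 and 31.7 CPM in 1DOA x 4DOA, against 46.3, 45.3, 44.9 and 54.3 CPM in WT F1-4DOA (-1.94 ± 0.65, adjusted p = 0.0702). All 4 cross-progeny libraries lay below all 4 self-progeny libraries, with replicate 4 the highest. *grd-10* had 5.05, 0.548, 3.58 and 10.5 CPM in 1DOA x 4DOA, against 18.5, 15.3, 17.8 and 19.2 CPM in WT F1-4DOA (-1.81 ± 0.59, adjusted p = 0.0617). Neither difference passed the threshold. At an adjusted p under 0.05 without the fold limit, *grd-5* and *ptr-20* rose (log2 fold changes 0.52 and 0.75), against 2.31% of all genes.

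**Figure D4:**
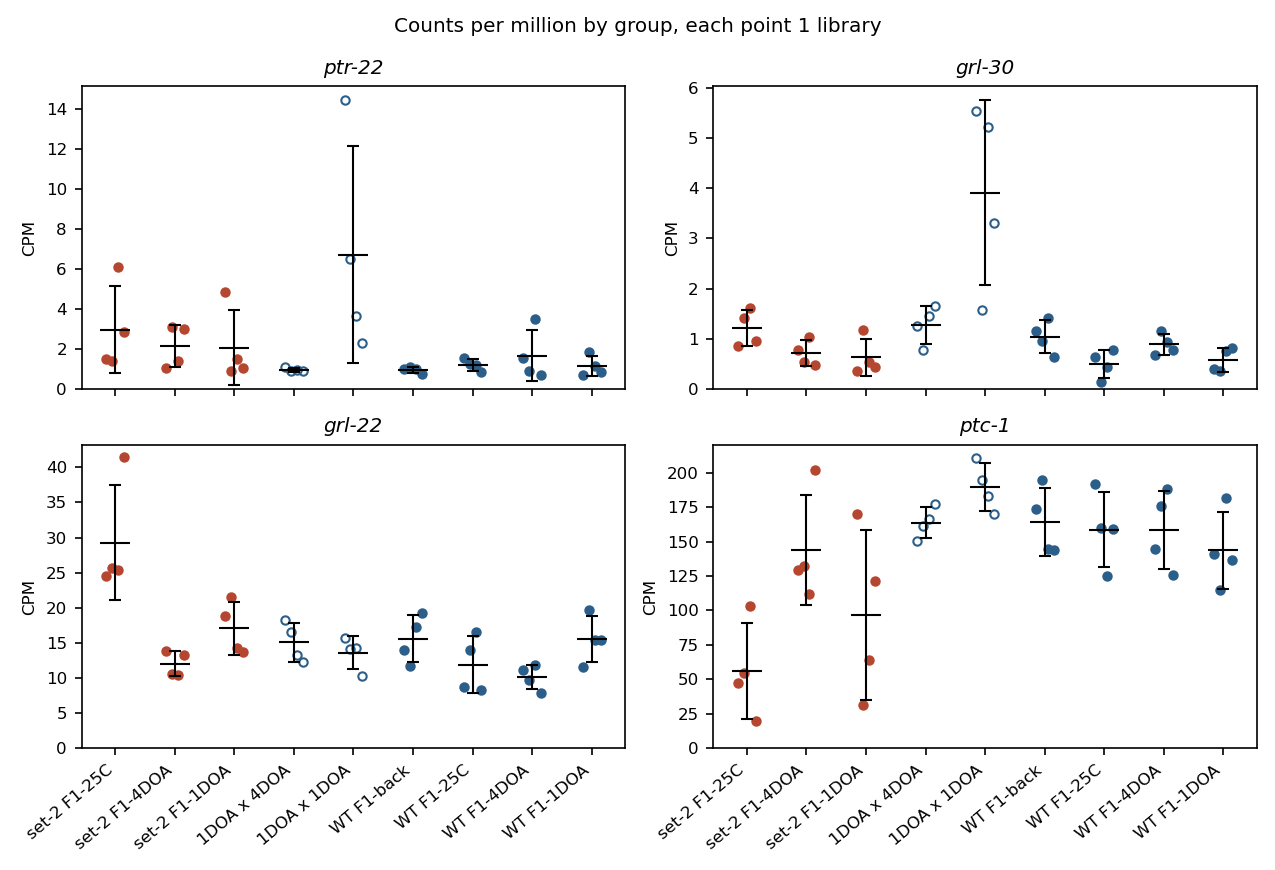
CPM (linear axes) of *ptr-22*, *grl-30*, *grl-22* and *ptc-1* in the 9 groups of the parental experiment. Points are libraries (red, *set-2*; blue, wild type; open, cross-progeny), and bars give the mean and SD of 4 libraries, with SD bars stopped at 0. *ptr-22* lies at 0.876 to 1.08 CPM in 1DOA x 4DOA and 2.28 to 14.4 CPM in 1DOA x 1DOA, and *ptc-1* at 19.4 to 103 CPM in set-2 F1-25C and 125 to 192 CPM in WT F1-25C.

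In the outcross, no member was called between kinds of line. MUT-des over WT-ctrl called 0 of 66 members at F3 and F5 together, against 0.107% higher and 0.0693% lower of all 15872 genes tested. WT-des over WT-ctrl also called 0, against 0% and 0.0126% for both generations together and 0% and 0.0063% at F3 and at F5 alone, and MUT-des over WT-des called 0, against 0.0882% and 0.0315%. DESeq2 called 0 in each of these 5 comparisons. An unadjusted p under 0.05 was reached by 5, 0 and 5 members for MUT-des over WT-ctrl, WT-des over WT-ctrl and MUT-des over WT-des, against 7.08%, 2.51% and 7.19% of all genes, and by 0 members at F3 and 0 at F5 for WT-des over WT-ctrl, against 1.72% and 1.46%. The median log2 fold change of the members was 0.05 for MUT-des over WT-ctrl, -0.09 for WT-des over WT-ctrl and 0.17 for MUT-des over WT-des. *ptc-1* ran from 112 to 225 CPM in MUT-des, against 133 to 178 CPM in WT-ctrl, over both generations. *grd-3* ran between 1.85 and 32.1 CPM in MUT-des, and between 0.269 and 33.5 CPM in WT-ctrl.

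More members were called between the F5 and the F3 libraries, as were more of all genes. That comparison also had more libraries on each side. Over all lines, 0 members were higher and 6 were lower at F5 than at F3, against 0.158% and 1.95% of all genes. The 6 were *grd-3*, *grd-10*, *grd-13*, *grl-21*, *ptr-8* and *ptr-13*. Without the fold limit 8 were higher (*wrt-4*, *wrt-8*, *grd-2*, *grd-11*, *grl-22*, *ptr-11*, *ptr-16* and *ptr-18*) and 6 lower, against 3.76% and 4.59%. Medians of the log2 fold change were 0.21 over the members and 0.01 over all genes. Lowest, median and highest values of *grd-3* were 0.269, 1.24 and 5.99 CPM in the 10 F5 libraries, against 1.79, 14.2 and 33.5 CPM in the 11 F3 libraries (log2 fold change -3.34 ± 0.54 SE, adjusted p = 0.00312). *grd-10* had 0, 0.508 and 2.89 CPM at F5, against 0.417, 5.01 and 10.3 CPM at F3 (-2.64 ± 0.62, adjusted p = 0.0162). The F3 range of both genes reached down into the F5 range. *ptr-13* had 3.26, 4.12 and 5.97 CPM at F5, against 6.37, 7.45 and 15.8 CPM at F3 (-1.01 ± 0.17, adjusted p = 0.00299), and it was the 1 member of the 6 whose generations did not overlap. *grd-13* averaged 0.669 ± 0.564 CPM at F5 and 2.08 ± 1.46 CPM at F3 (-1.82 ± 0.53, adjusted p = 0.0419).

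The ground-like gene *grl-21* lay between 0.393 and 6.06 CPM at F5, against 0.476 and 108 CPM at F3 (-4.34 ± 0.93, adjusted p = 0.0111). *ptr-8* lay between 0.860 and 5.57 CPM at F5, against 3.25 and 41.6 CPM at F3 (-2.97 ± 0.48, adjusted p = 0.00312). The highest F5 library of each gene lay within its F3 range, and the F3 values spread widely between lines. *wrt-8* had 46.4, 71.2 and 121 CPM at F5, against 14.4, 44.3 and 53.1 CPM at F3, the largest rise of the 8 (0.92 ± 0.18, adjusted p = 0.00509). *wrt-4* had 429, 633 and 837 CPM at F5, against 184, 447 and 593 CPM at F3 (0.60 ± 0.17, adjusted p = 0.0361), and *grl-22* averaged 34.5 ± 10.3 CPM at F5 and 18.5 ± 6.05 CPM at F3 (0.89 ± 0.20, adjusted p = 0.0109). The transcript entry of *wrt-5* was also higher at F5 within the fold limit (log2 fold change 0.33 ± 0.10 SE, adjusted p = 0.0481). Whether the lines of F5 are the lines of F3 is not stated, and anything that differed between the samplings and the generation cannot be told apart. The yolk and oocyte genes summed to between 527 and 5774 CPM at F5 and between 2167 and 10464 CPM at F3, with 1 of the 4 called lower. The molting factors *mlt-8* and *bli-5* (log2 fold changes 0.61 and 0.59) and the collagens *dpy-5* and *sqt-2* (0.55 and 0.48) rose at an adjusted p under 0.05 within the fold limit. Collagens summed to 15407 to 33567 CPM at F5 and 10728 to 23230.0 CPM at F3, and epidermal markers to 4301 to 9142 CPM at F5 and 2729 to 6522 CPM at F3. These 2 sums are not independent, because *dpy-7*, *dpy-13*, *rol-6*, *sqt-1* and *sqt-3* are in both lists. The part of these lists in the members' values was not tested. The calls of *grd-3*, *grd-10*, *grl-21* and *ptr-8* held in all 29 alternatives, that of *ptr-13* in 20 of 29 and that of *grd-13* in 11 of 28, where no filter on low counts also lost it. That of *ptr-13* was lost with all 22 libraries and without WT-ctrl F3 replicates 2 or 4, WT-des F3 replicate 2, MUT-des F3 replicate 3, WT-ctrl F5 replicates 1 or 4, WT-des F5 replicate 2 or MUT-des F5 replicate 2, and that of *grd-13* without WT-ctrl F3 replicates 2, 3 or 4, WT-des F3 replicates 1, 2 or 3, MUT-des F3 replicates 2 or 3, WT-ctrl F5 replicates 1, 3 or 4, WT-des F5 replicates 2 or 4 or MUT-des F5 replicates 1 or 3. With single libraries left out, 4 to 8 members were called, with the shares of all genes not given.

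**Figure D5:**
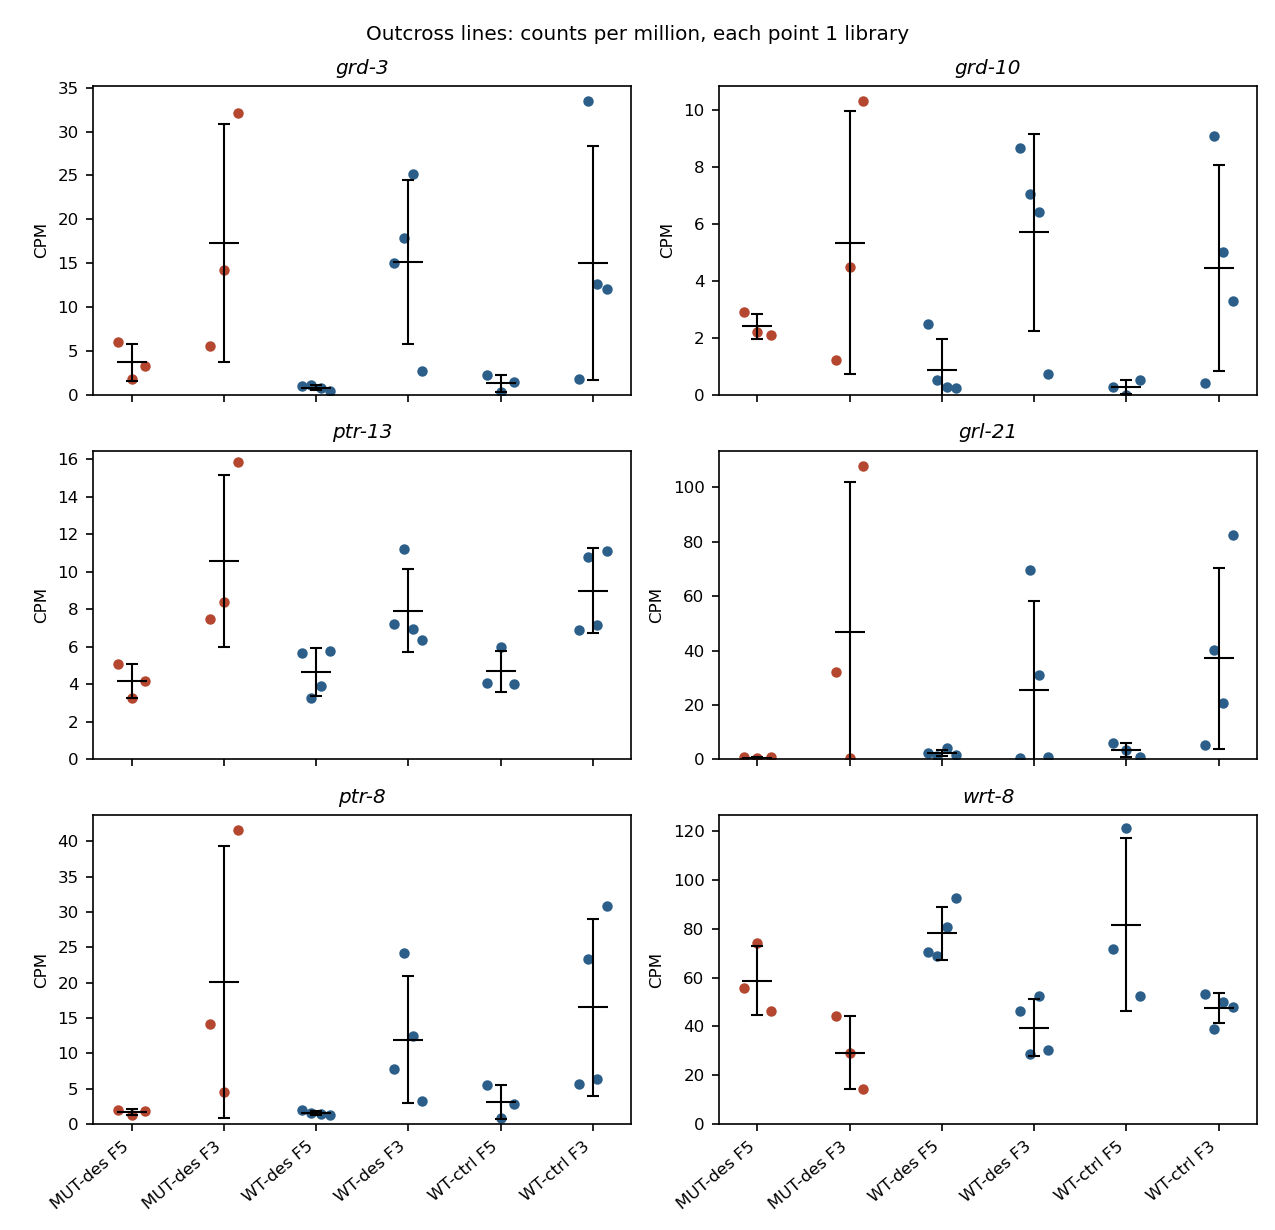
CPM (linear axes) of *grd-3*, *grd-10*, *ptr-13*, *grl-21*, *ptr-8* and *wrt-8* in the outcross lines, without WT-ctrl F5 replicate 2. Points are libraries (red, MUT-des; blue, WT-des and WT-ctrl), and bars give the mean and SD of 3 or 4 libraries, with SD bars stopped at 0. *ptr-13* lies at or below 5.97 CPM in all F5 libraries and at or above 6.37 CPM in all F3 libraries.

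The 38 tested members that no comparison called included *qua-1*, 4 warthog, 6 groundhog, 14 ground-like and 13 patched-related genes. *qua-1* varied between 55.7 and 828 CPM over the parental libraries, and its group means ran from 185 to 614 CPM. The other hedgehog pathway homologues, a list of 16 genes that includes *tra-1* (the Gli transcription factor), *che-14* and *ptd-2* (relatives of Dispatched) and *lrp-1* (megalin), had 14 members tested. The 1 call among them in the 21 comparisons was that of *hhat-2* given above.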

How the data were processed

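RNA was extracted from whole mid-L4 hermaphrodites with the PicoPure kit, and libraries were made with the TruSeq v2 kit, which does not mark strand, so a gene and an overlapping antisense gene cannot be told apart. The authors trimmed reads (Trimmomatic 0.38), checked them (FastQC 0.11.9), aligned them with RNA STAR 2.7.8a and counted reads per gene with htseq-count 0.9.1 on build ce10 (WS220), and the deposited values are whole-number counts, 1 column a library. The submitters' processing notes also name DESeq2.

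Groups were taken from the sample labels. Counts were tested with the quasi-likelihood F test of edgeR 4.0.16 (R 4.3.3, limma 3.58.1, statmod 1.5.0), after filterByExpr and TMM scaling, in 1 fit over the 36 parental libraries and 1 over 21 outcross libraries, with Benjamini-Hochberg adjustment over all genes tested. The standard error is the log2 fold change divided by the square root of F. Interactions are differences of log2 fold changes. The p-values measure the spread between these samples. Names, neighbour order and exon lengths came from RefSeq and Ensembl annotation of WBcel235, and no coordinate was carried over.

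The members and gene lists were chosen with earlier results of these data known. Named were all members called at least once, *ptc-1*, *ptc-3*, *hog-1* and *qua-1*. Values per library were given for 12 members, ranked by the number of comparisons that called them and then by adjusted p. *ptc-1*, called in 1 comparison, took the place of *grl-27*, called in 2, so that a patched gene was included. Alternatives were DESeq2 1.42.0, RLE factors, library totals, no filter, a mean of at least 50 counts, the groups compared alone, a replicate block, all 22 outcross libraries, and each library left out in turn. The tests were tried on simulated counts. Replicate numbers were not used to pair samples in the main fits, and whether they do pair samples was not decided.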

Additional observations from a re-analysis of the deposited data

Results flagged for a closer look

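In 12 members with values per library, 144 sets of 4 libraries were examined for a library far from the rest, and 8 were found. Chance gives about 1 in 20 such sets. *grd-3* was at 54.3 CPM in WT F1-4DOA replicate 4, against 44.9 to 46.3 CPM in the rest of the group, and at 30.9 CPM in set-2 F1-1DOA replicate 2, against 9.27 to 10.5 CPM. *ptr-13* was at 14.1 CPM in set-2 F1-4DOA replicate 2, against 4.58 to 5.56 CPM, and at 6.02 CPM in 1DOA x 4DOA replicate 2, against 12.8 to 14.6 CPM. *grl-22* was at 41.5 CPM in set-2 F1-25C replicate 4, against 24.5 to 25.6 CPM. In WT-des F3 replicate 4, *grd-10* was at 0.723 CPM, against 6.41 to 8.66 CPM in the other 3 libraries, and its neighbour *grd-13* was at 0.361 CPM, against 2.18 to 2.86 CPM. *ptc-1* was at 220.9 CPM in WT-des F3 replicate 2, against 166.1 to 169.2 CPM.

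The interaction of the edgeR quasi-likelihood fit called 7 members for a 25°C effect that differed between *set-2* and wild type, 3 positive and 4 negative. Of all genes, 0.732% were called positive and 1.95% negative. The calls of *grd-3*, *grd-10* and *grl-16* held in all 23 alternatives. Those of *grl-22*, *wrt-4* and *ptr-13* held in 17, 12 and 9 of 23, and that of *grd-13* in 8 of 22. The difference of log2 fold changes was -5.47 ± 0.98 for *grd-3* (SE, adjusted p = 0.00342), -5.06 ± 0.91 for *grd-10* (adjusted p = 0.00342), -3.13 ± 0.87 for *grd-13* (adjusted p = 0.0406) and -2.07 ± 0.59 for *ptr-13* (adjusted p = 0.0459). It was 1.47 ± 0.35 for *grl-16* (adjusted p = 0.0156), 1.61 ± 0.44 for *wrt-4* (adjusted p = 0.0395) and 1.17 ± 0.31 for *grl-22* (adjusted p = 0.0327). The effect of maternal age differed between cross-progeny and self-progeny for *ptr-22*, with a difference of -3.46 ± 0.85 (adjusted p = 0.0488). That call held in 5 of 22 alternatives. Of all genes, 0.0457% were called positive and 0.536% negative there.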

How the results depend on the processing

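Of 1052 repeats of the 61 calls of a member in a comparison, 842 kept the call, 210 lost it and 0 turned its direction. DESeq2 and RLE factors kept all 61, and a mean of at least 50 counts kept the 50 that it still tested. Library totals and the fit of only the groups compared kept 48 each, and no filter kept 43. Numbers of members called that moved were as follows, and the cause was not tested. Shares of all genes under these settings are not given. DESeq2 called 3 for set-2 F1-1DOA over WT F1-1DOA, 4 for set-2 F1-4DOA over WT F1-4DOA, 2 for 1DOA x 4DOA over 1DOA x 1DOA, 2 for 1DOA x 4DOA over WT F1-4DOA and 5 for the maternal age interaction with *set-2*. Library totals called 2 for WT F1-4DOA over WT F1-1DOA, 0 for set-2 F1-1DOA over WT F1-1DOA, 2 for set-2 F1-4DOA over WT F1-4DOA and 0 for the cross interaction. Without a filter the numbers were 2 for WT F1-4DOA over WT F1-1DOA, 4 for the 25°C interaction, and 0 for set-2 F1-1DOA over WT F1-1DOA, set-2 F1-4DOA over WT F1-4DOA, 1DOA x 4DOA over 1DOA x 1DOA and the cross interaction. With a mean of at least 50 counts, which does not test *ptr-22* or *grl-30*, they were 2 for set-2 F1-1DOA over WT F1-1DOA, 2 for set-2 F1-4DOA over WT F1-4DOA, and 0 for 1DOA x 4DOA over 1DOA x 1DOA, 1DOA x 1DOA over WT F1-1DOA and the cross interaction. Fits of only the groups compared gave 0 for set-2 F1-1DOA over WT F1-1DOA, set-2 F1-4DOA over set-2 F1-1DOA, 1DOA x 4DOA over 1DOA x 1DOA and the cross interaction, 1 for set-2 F1-25C over set-2 F1-1DOA and 1 for the maternal age interaction. With all 22 outcross libraries 7 members were called for F5 over F3.

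Samples with the same replicate number had deviations correlated above 0.1 in 43 of 144 parental pairs and 20 of 46 outcross pairs. Every replicate number was above 0.1 in 1 of 36 parental and 1 of 15 outcross pairs of groups. Libraries with different numbers were not compared, so these values cannot decide whether the numbers pair samples. A replicate block kept 50 of the 61 calls. It lost those of *grd-13* and *ptr-13* in WT F1-4DOA over WT F1-1DOA and in the 25°C interaction, which also lost *wrt-4*, of *grd-1* in WT F1-back over WT F1-25C, *wrt-9* in set-2 F1-1DOA over WT F1-1DOA, *grd-3* in set-2 F1-25C over set-2 F1-1DOA, *grd-13* in F5 over F3, and *ptr-22* in 1DOA x 4DOA over 1DOA x 1DOA and the cross interaction. Under it 2 members were called for WT F1-4DOA over WT F1-1DOA, 0 for set-2 F1-1DOA over WT F1-1DOA, 2 for set-2 F1-4DOA over WT F1-4DOA, 0 for 1DOA x 4DOA over 1DOA x 1DOA, 4 for the 25°C interaction and 0 for the cross interaction.

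With single libraries left out, 476 of 630 calls held. The share of all genes called moved between these fits as well, so the ranges below are not results about the members alone. Members called ranged from 0 to 4 for WT F1-4DOA over WT F1-1DOA, 5 to 14 for WT F1-25C over WT F1-1DOA, 13 to 22 for WT F1-back over WT F1-25C, 0 to 5 for set-2 F1-1DOA over WT F1-1DOA, 0 to 6 for set-2 F1-4DOA over set-2 F1-1DOA, 1 to 6 for set-2 F1-25C over set-2 F1-1DOA, 0 to 10 for set-2 F1-4DOA over WT F1-4DOA and 8 to 13 for set-2 F1-25C over WT F1-25C. They ranged from 0 to 2 for 1DOA x 4DOA over 1DOA x 1DOA, 2 to 4 for 1DOA x 1DOA over WT F1-1DOA, 0 to 3 for 1DOA x 4DOA over WT F1-4DOA, 0 to 18, 3 to 11 and 0 to 2 for the interactions of maternal age, 25°C and the cross, and 4 to 8 for F5 over F3. Depth limits the low members: a group mean near 1 CPM rests on few counts in the shallowest libraries.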

Other observations

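Members differed in how much they varied among libraries of the same group. The SD of log2 CPM within groups had a median of 0.534 over the 63 parental members, with the lowest value, 0.207, for the groundhog gene *grd-15*, followed by 0.212 for *grd-5* and 0.214 for *ptr-2*, a patched-related gene. The ground-like gene *grl-21* had the highest, 2.05, and 7 members were over 1, among them *wrt-10*, *ptr-8*, *wrt-2*, *ptr-10*, *grd-3* and *grd-13*. In the outcross the median was 0.503 over 66 members, *grl-21* was again the highest at 2.28 and *ptr-2* the lowest at 0.132, with 11 members over 1. These SDs include counting error, which is larger for genes of low level.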
